A study of Mus musculus with 96 samples.

Results

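A set of 10 genes that govern the G1 phase of the cell cycle was followed across 48 single mouse embryonic stem (ES) cells: the D-type cyclins Ccnd1, Ccnd2 and Ccnd3, the E-type cyclins Ccne1 and Ccne2, the cyclin-dependent kinases Cdk2, Cdk4 and Cdk6, the kinase inhibitor Cdkn1b (p27) and the retinoblastoma gene Rb1. They were chosen by symbol, and all 10 had a row among the 23284 gene rows of the count table. The cells were of the J1 line, a male line derived from strain 129 mice, at passages 12 to 20, and were kept without feeder cells in medium with serum and leukaemia inhibitory factor. Each cell was captured on a Fluidigm C1 chip, its cDNA was amplified with the SMARTer Ultra Low kit, and its Nextera XT library was read on 2 HiSeq lanes, which were summed here. No gene was targeted and no agent was compared, so all cells form a single group, serum ES cells. The summed gene counts came to 7137821 ± 1251221 reads per cell (SD, n = 48 cells), between 4408953 and 9767245.

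No label ties a cell to a culture of its own. The cells therefore count as 1 sample, and differences between cell states below are descriptions with no p-value. Cells were divided by Gata6, a transcription factor of primitive endoderm, the extra-embryonic lineage that ES cells can enter. A cell counted as Gata6-low under 20 CPM (a gene's reads per 1000000 reads of the cell's scaled library total) and as Gata6-high above it. The 35 Gata6-low cells lay between 0 and 1.11 CPM of Gata6 and the 13 Gata6-high cells between 63.7 and 808 CPM, so no cell was near the threshold. The marker lists followed the same division. The 8 primitive endoderm markers other than Gata6 were all at least 1 log2 unit higher in Gata6-high cells, and they summed to 2.37 to 131 CPM in Gata6-low and to 2251 to 13204 CPM in Gata6-high cells. Of 8 naive pluripotency markers, 7 were at least 1 log2 unit lower and Klf4 was within that range. The naive markers summed to 468 to 5608 CPM in Gata6-low and to 49.6 to 1299 CPM in Gata6-high cells, so the ranges overlapped. The trophectoderm marker Cdx2, the mesendoderm markers T and Gsc, the fibroblast collagen Col3a1 and the 2-cell markers Zscan4c, Zscan4d and Zscan4f had no read in any cell. Trophectoderm markers summed to 0 to 303 CPM in Gata6-low and 0.139 to 33.9 CPM in Gata6-high cells. Of these, Tfap2c had a median of 10.1 and a highest value of 260 CPM in Gata6-low cells. It had at least 5 reads, without thinning, in 24 of the 35. In Gata6-low cells Gata3 reached 82.2 CPM, Hand1 49.3 CPM and Eomes, also on the mesendoderm list, 71.9 CPM. Fibroblast markers summed to at most 35.9 CPM and mesendoderm markers to at most 71.9 CPM in any cell. The median read total was 6419369 in Gata6-low and 8076614 in Gata6-high cells, and the median number of genes with a read was 9045 and 8986.

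In a typical somatic cell, D-type cyclins bind Cdk4 and Cdk6, and these kinases begin to phosphorylate the retinoblastoma protein. E-type cyclins with Cdk2 complete that step, which releases E2F transcription factors to switch on genes of DNA replication. Cdkn1b protein binds cyclin–kinase complexes and holds Cdk2 inactive. ES cells are known for a short G1 phase, high activity of Cdk2 with E-type cyclins, and low D-type cyclin activity that increases as they differentiate.

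The promoters of the G1 kinases are printed because, among the promoters at hand, these held the matches to motifs of Myc and E2F, the transcription factors of this pathway. RefSeq's table on GRCm38.p6 held entries for 6 of the 10 genes (Ccnd3, Ccne1, Cdk2, Cdk4, Cdk6 and Cdkn1b) and none for Ccnd1, Ccnd2, Ccne2 and Rb1. The 250 bases before the annotated start of each were searched on both strands for the E-box CACGTG, bound by Myc-family factors, and for an E2F-like motif, TTTNNCGC. These letters do not overlap between the motifs. The E-box was found in 1978 of 32851 promoters (6.02%) and the E2F-like motif in 1406 (4.28%). Matches are in capitals in the promoters below, written 5′ to 3′ on the gene's strand. Cdk4 lies at chr10:127063285-127063534 on the plus strand, Cdk2 at chr10:128705052-128705301 on the minus strand and Cdk6 at chr5:3343643-3343892 on the plus strand.
Cdk4: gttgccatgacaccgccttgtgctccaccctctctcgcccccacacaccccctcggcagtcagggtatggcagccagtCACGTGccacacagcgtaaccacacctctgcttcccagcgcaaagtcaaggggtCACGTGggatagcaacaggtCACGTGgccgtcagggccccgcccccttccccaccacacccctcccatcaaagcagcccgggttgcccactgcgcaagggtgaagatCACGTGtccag
Cdk2: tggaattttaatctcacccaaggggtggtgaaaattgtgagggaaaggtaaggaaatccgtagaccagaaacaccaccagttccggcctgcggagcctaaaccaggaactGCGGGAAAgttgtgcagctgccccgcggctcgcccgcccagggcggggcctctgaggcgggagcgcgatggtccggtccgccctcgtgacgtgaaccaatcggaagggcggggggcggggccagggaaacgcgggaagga
Cdk6: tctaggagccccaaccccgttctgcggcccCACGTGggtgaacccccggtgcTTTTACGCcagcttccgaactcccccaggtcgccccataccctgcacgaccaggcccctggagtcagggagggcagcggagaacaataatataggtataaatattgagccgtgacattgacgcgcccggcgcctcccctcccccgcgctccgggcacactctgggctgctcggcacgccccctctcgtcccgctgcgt
The Cdk4 window held 4 E-boxes and no E2F-like match, that of Cdk2 held 1 E2F-like match and no E-box, and that of Cdk6 held 1 of each. Neither motif was found in the windows of Ccne1 and Cdkn1b or in either window of Ccnd3. A match describes the letters and is not evidence of binding.

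All 10 genes passed the low-count filter, an average of 10 or more reads per cell, as did 11746 genes in all. Levels were taken as log2(CPM + 1), so that a difference understates the change of genes near 0. Across all tested genes, 15.9% were at least 1 log2 unit higher in Gata6-high cells and 16.5% at least 1 log2 unit lower, and the median difference was -0.15. Of the 10 G1 genes, 3 were higher by that measure (Ccnd2, Ccnd3 and Ccne2), 1 was lower (Ccnd1) and 6 lay within 1 log2 unit, with a median difference of 0.28. No G1 gene separated the states without overlap, against 0.196% of all tested genes that lay wholly higher in Gata6-high cells. In the plot of levels by cell, all 4 genes past 1 log2 unit are cyclins, and the kinases overlap broadly between the states.

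**Figure D1:**
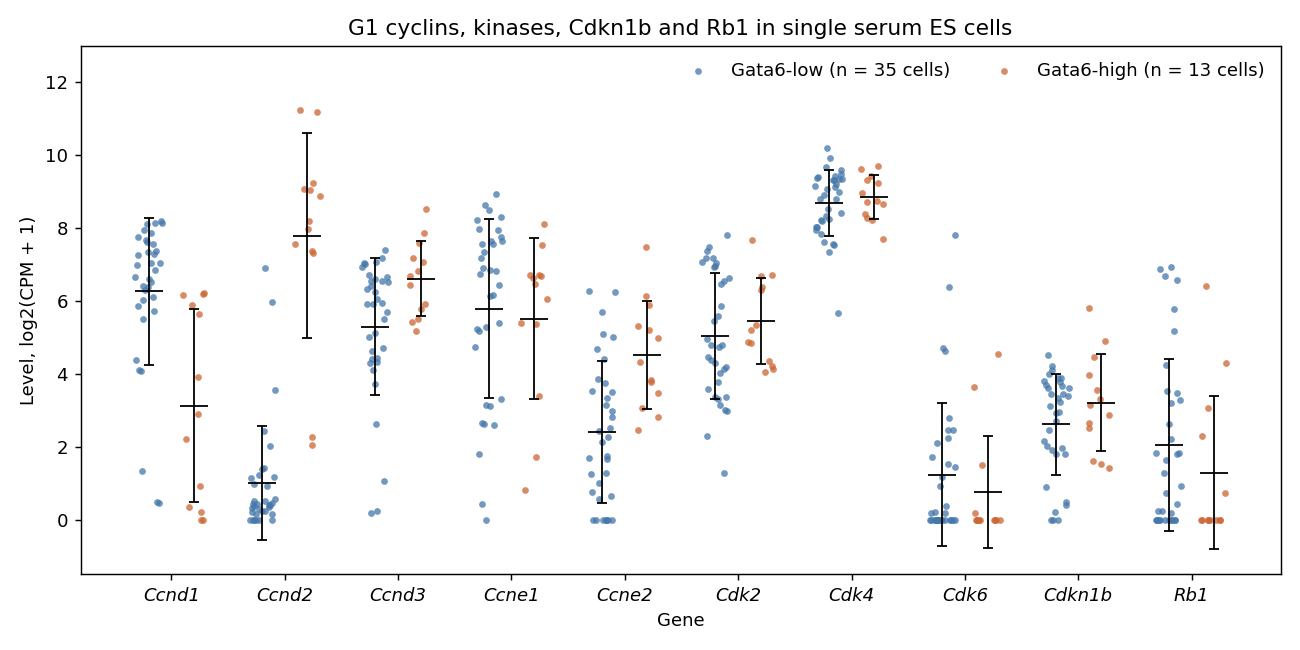
Level of each G1 gene on the log2(CPM + 1) scale (vertical axis) in each of 35 Gata6-low (blue) and 13 Gata6-high (orange) cells. Points are cells, and bars give the mean ± SD over cells; Ccnd2 averages 1.01 in Gata6-low and 7.80 in Gata6-high cells, Ccnd1 6.26 and 3.12, and Cdk4 8.68 and 8.85.

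Ccnd2, a D-type cyclin, showed the largest difference of the set. In Gata6-low cells its level was 0 CPM at the lowest, 0.346 at the median and 119 at the highest. In Gata6-high cells these values were 3.14, 292 and 2410 CPM. Every Gata6-high cell was above the Gata6-low median, and 11 of 13 were above the highest Gata6-low cell. The mean was 1.01 ± 1.56 log2 units (SD, n = 35 cells) in Gata6-low and 7.80 ± 2.80 (SD, n = 13 cells) in Gata6-high cells, a difference of 6.79. Only 16 of the 11746 tested genes had a larger one. Pooled over cells, Ccnd2 stood at 6.07 CPM in Gata6-low cells (exact Poisson 95% interval 5.77 to 6.39) and at 518 CPM in Gata6-high cells (513 to 522), a ratio of 85.3. A single Gata6-low cell, cell 46, gave 852 of the 1479 Gata6-low reads, and without it the pooled value was 2.65 CPM and the ratio 195. These intervals treat reads as independent counts and leave out the spread between cells. The reads carry no molecular identifiers and are not independent molecules, so the intervals understate even the counting error.

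Ccnd2 had exceptions in both states. In Gata6-low cells it passed 10 CPM in 3 of 35 cells, namely at 119 CPM in cell 46, 62.1 CPM in cell 30 and 10.8 CPM in cell 45. Cell 46 carried 437 reads on 1 lane and 415 on the other, both from the same library, so capture and amplification were not tested. Its Gata6 level was 0.560 CPM, its 8 primitive endoderm markers other than Gata6 summed to 11.9 CPM, below the Gata6-low median of 16.7, and its Ccnd1 level was 204 CPM. Ccnd2 was thus high in a cell with few reads of primitive endoderm markers. The other two had marker sums of 46.6 and 31.1 CPM. Among Gata6-high cells, cell 2 had 3.14 CPM and cell 41 had 3.78 CPM of Ccnd2, with marker sums of 2251 and 5929 CPM.

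Ccnd1, the D-type cyclin best known as a target of growth factor signals, had the opposite pattern. In Gata6-low cells it stood at 0.384 CPM at the lowest, 113.8 at the median and 291 at the highest. In Gata6-high cells the values were 0, 6.46 and 72.9 CPM. No Gata6-high cell reached the Gata6-low median, 24 of 35 Gata6-low cells were above the highest Gata6-high cell, and 4 Gata6-high cells were below the lowest Gata6-low cell. The mean was 6.26 ± 2.03 log2 units (SD, n = 35 cells) against 3.12 ± 2.65 (SD, n = 13 cells), a difference of -3.14, and 75 tested genes had a lower one. Pooled CPM was 122.5 (121 to 124) in Gata6-low and 29.2 (28.1 to 30.2) in Gata6-high cells, 4.20 times higher in the former. Ccnd1 was nearly absent from 2 Gata6-low cells, cell 14 at 0.400 CPM and cell 15 at 0.384 CPM. In both, Ccnd3 was above its Gata6-low median, at 95.4 and 91.1 CPM.

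Ccnd3, a broadly expressed D-type cyclin, was present in nearly every cell. Its level in Gata6-low cells was 0.129 CPM at the lowest, 59.7 at the median and 167 at the highest. In Gata6-high cells it was 35.4, 102 and 370 CPM. The states overlapped broadly, with 8 of 13 Gata6-high cells above the Gata6-low median and 3 above the highest Gata6-low cell. The mean was 5.29 ± 1.88 against 6.62 ± 1.03 log2 units, a difference of 1.33. The difference fell short of the 1 log2 unit used to call a gene higher with medians in place of means (0.77), with a pseudocount of 10 CPM (0.96) and with only the Gata6-high cells over 20 CPM of Pou5f1 (0.89).

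Levels of different genes were compared only per kilobase of exon (CPM per kb). Summed over the D-type cyclins, a cell held 32.3 CPM per kb at the median in Gata6-low cells (4.45 to 73.4) and 57.9 in Gata6-high cells (7.20 to 278). The sums thus overlapped, with a higher median in Gata6-high cells. The make-up differed at the median, while the range of each gene's share overlapped between the states. In Gata6-low cells the median share of Ccnd1 was 79.0%, that of Ccnd3 19.3% and that of Ccnd2 0.122%. Ccnd1 was the largest part in 32 of 35 Gata6-low cells and Ccnd3 in 3, and Ccnd2 in none, with a highest share of 25.3%. In Gata6-high cells the median share was 2.11% for Ccnd1, 23.5% for Ccnd3 and 63.0% for Ccnd2. Ccnd2 was the largest part in 11 of 13 Gata6-high cells, Ccnd1 in 1 and Ccnd3 in 1. These shares depend on the union of annotated exons, 4709 bases for Ccnd1, 9409 for Ccnd2 and 8775 for Ccnd3. In some Gata6-low cells Ccnd3 had the higher CPM but the smaller share. In cell 10, Ccnd3 had 83.7 CPM and a share of 41.1%, and Ccnd1 63.8 CPM and 58.3%. No other lengths were tried.

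**Figure D2:**
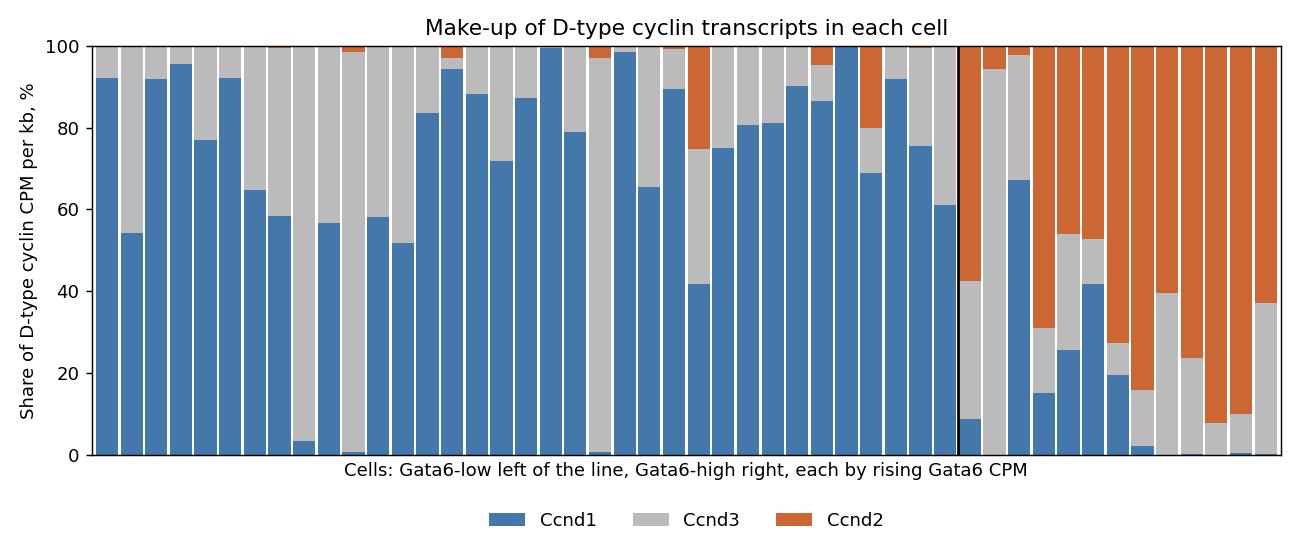
Share of Ccnd1 (blue), Ccnd3 (grey) and Ccnd2 (orange) in the summed D-type cyclin CPM per kb of exon, in percent (vertical axis), with 1 bar per cell; the 35 Gata6-low cells are left of the line and the 13 Gata6-high cells right of it, each ordered by Gata6 CPM. Ccnd1 is the largest part in 32 of 35 Gata6-low cells and Ccnd2 in 11 of 13 Gata6-high cells. The shares depend on the exon lengths used.

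Gata6-high cells differed among themselves in Pou5f1 (Oct4), a transcription factor of pluripotency, and Ccnd1 differed with it. In the 5 Gata6-high cells over 20 CPM of Pou5f1, Ccnd1 stood at 72.1, 57.9, 0, 72.9 and 70.2 CPM. In the 8 cells under 20 CPM it stood at 6.46, 0.278, 0.153, 0.912, 3.66, 0, 14.2 and 49.1 CPM. Of these 8 cells, the 2 with the highest Ccnd1 levels were also the 2 with the highest Pou5f1 levels, 13.5 and 15.3 CPM. The cell at 0 in the former set, cell 41, was also 1 of the 2 Gata6-high cells with under 4 CPM of Ccnd2. The mean of Ccnd1 was 2.86 log2 units higher in the cells over 20 CPM of Pou5f1. For Ccnd2 the same difference was -1.07, for Cdkn1b -1.15 and for Rb1 -1.12. Among the replication and mitosis genes named below, it was 3.04 for Mcm2, 3.00 for Ckap2, 1.55 for Cdc6 and 1.32 for Bub1b. For Nusap1, Cdc25c and Cdk1 it was 1.16, 0.24 and -0.58. A difference of the size seen for Ccnd1 was thus not particular to it. The share of all tested genes past 1 log2 unit in this split was not counted. Rb1 had a median of 0 CPM in both sets, and cell 32 gave 822 of its 1084 reads in the 8 cells.
Ccnd2 was over 100 CPM in 4 of the 5 and in 7 of the 8 cells, so it was high with and without Pou5f1. Read totals ran from 5991691 to 8870973 in the 5 cells and from 6679277 to 8625418 in the 8 cells. Whether any of the 5 captures held more than 1 cell was not tested. Without them, the difference between states for Ccnd1 changed from -3.14 to -4.24 and that for Ccnd2 from 6.79 to 7.20, and Cdkn1b passed 1 log2 unit, at 1.04.

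Among the E-type cyclins, which activate Cdk2, Ccne2 was higher in Gata6-high cells and Ccne1 was not. Ccne1 had 0 CPM at the lowest, 105 at the median and 489 at the highest in Gata6-low cells, and 0.767, 87.9 and 278 CPM in Gata6-high cells. The mean was 5.79 ± 2.45 against 5.51 ± 2.21 log2 units, a difference of -0.28 that lay well within the spread over cells and turned positive, at 0.11 or 0.03, when cell 38 or cell 40 was left out. Ccne1 thus ranged from hardly any reads to well over 200 CPM in both states. Ccne2 had 0, 3.81 and 76.6 CPM in Gata6-low cells and 4.47, 19.0 and 177 CPM in Gata6-high cells. All 13 Gata6-high cells were above the Gata6-low median, but only 1 was above the highest Gata6-low cell. The difference of means was 2.11 log2 units, from 2.41 ± 1.94 to 4.52 ± 1.47. Pooled, Ccne2 was at 11.6 CPM (11.2 to 12.1) and 33.3 CPM (32.2 to 34.5), a ratio of 2.86.

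Per kilobase, Ccne1 remained the main E-type cyclin in both states. It made up a median of 97.4% of E-type cyclin CPM per kb in the 34 Gata6-low cells with a read of either gene, and was the larger part in 30 of them. In Gata6-high cells its median share was 73.5%, and it was the larger part in 11 of 13. The summed E-type level was 42.0 CPM per kb at the median in Gata6-low cells (0.801 to 206, over those 34 cells) and 38.9 in Gata6-high cells (6.48 to 120). The E-type sum therefore overlapped between states, as did the D-type sum, whose medians lay farther apart (32.3 and 57.9 CPM per kb).

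Of the kinases, Cdk4 was the most abundant and had the smallest SD on the log2 scale. It had 50.1 CPM at the lowest, 476 at the median and 1172 at the highest in Gata6-low cells, and 208, 426 and 826 CPM in Gata6-high cells. The difference was 0.16 log2 units, from 8.68 ± 0.91 to 8.85 ± 0.60. Pooled CPM was 468 and 478, a ratio of 1.02. Cdk4 was the one G1 gene found at 5 or more reads in 48 of 48 cells at a common depth of 4408953 reads (Clopper-Pearson 95% interval 92.6% to 100%).

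Cdk2, the partner of the E-type cyclins, had a larger SD than Cdk4 on the log2 scale. Set against genes of similar mean level, as described below, Cdk2 did not vary more than they did. It had 1.42 CPM at the lowest, 26.5 at the median and 223 at the highest in Gata6-low cells, and 15.4, 35.7 and 205 CPM in Gata6-high cells. The difference was 0.40 log2 units, from 5.04 ± 1.73 to 5.44 ± 1.19. Cdk6, the other partner of the D-type cyclins, was near 0 in most cells of either state. In Gata6-low cells it had 0 CPM at the lowest, 0.125 at the median and 222 at the highest, and in Gata6-high cells 0, 0 and 22.4 CPM. It had no read in 17 of 35 Gata6-low and 9 of 13 Gata6-high cells. The difference of means was -0.48 log2 units. A single Gata6-low cell, cell 15, held the highest value, and it was 1 of the 2 Gata6-low cells almost without Ccnd1.

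Cdkn1b, the inhibitor, was low throughout. Its level was 0 CPM at the lowest, 7.67 at the median and 21.7 at the highest in Gata6-low cells, and 1.66, 7.84 and 55.4 CPM in Gata6-high cells. The medians were nearly equal, and 2 Gata6-high cells were above the highest Gata6-low cell. The difference of means was 0.60 log2 units, from 2.61 ± 1.39 to 3.21 ± 1.34. Rb1, whose protein restrains E2F factors, had 0 CPM at the lowest, 1.43 at the median and 122 at the highest in Gata6-low cells, and 0, 0 and 83.6 CPM in Gata6-high cells. It had no read in 11 of 35 Gata6-low and 8 of 13 Gata6-high cells. The difference of means was -0.76 log2 units, and it passed 1 log2 unit, at -1.01 or -1.18, when cell 2 or cell 32 was left out.

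Ranked by mean CPM per kb of exon, Gata6-low cells held Cdk4 at 148 ± 77.4 (SD, n = 35 cells), followed by Ccne1 at 48.7 ± 48.4 and Ccnd1 at 26.8 ± 18.7. Then came Cdk2 at 9.57 ± 9.93, Ccnd3 at 7.19 ± 5.35 and Ccne2 at 3.41 ± 5.60. Rb1 at 2.85 ± 5.86, Cdkn1b at 1.67 ± 1.29, Cdk6 at 0.787 ± 2.84 and Ccnd2 at 0.648 ± 2.37 closed the order. The last 2 rest on single cells: Cdk6 was at 0.343 without cell 15, and by medians Cdk6 (0.00893) was below Ccnd2 (0.0368). Cdk4 stood above the next gene by more than either gene's SD, and every later pair of neighbours differed by less than the larger of their SDs. In Gata6-high cells Cdk4 was again first, at 153 ± 60.7 (SD, n = 13 cells). Ccnd2 was next at 64.9 ± 85.7, followed by Ccne1 at 32.3 ± 29.1, Ccnd3 at 14.1 ± 10.9 and Ccne2 at 10.6 ± 13.4. Cdk2 at 9.52 ± 8.76, Ccnd1 at 5.68 ± 6.76 and Cdkn1b at 2.86 ± 3.31 came next, and Rb1 at 1.46 ± 3.84 and Cdk6 at 0.196 ± 0.477 were last. There too, Cdk4 alone exceeded its neighbour by more than either SD. Both orders depend on the exon lengths used, and no other lengths were tried.

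Detection at the common depth followed the same lines. Ccnd2 had at least 5 reads in 11 of 35 Gata6-low cells (31.4%, Clopper-Pearson 95% interval 16.9% to 49.3%) and in 13 of 13 Gata6-high cells (75.3% to 100%). Ccnd1 was detected in 33 of 35 (94.3%, 80.8% to 99.3%) and in 8 of 13 (61.5%, 31.6% to 86.1%). Cdk6 was detected in 16 of 48 cells (33.3%, 20.4% to 48.4%) and Rb1 in 22 of 48 (45.8%, 31.4% to 60.8%). The other 6 genes were each detected in at least 37 of the 48 cells. These intervals cover counting error over cells of 1 sample.

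Lanes checked only the counting of these values, since both lanes of a cell read the same amplified library. Of 360 gene-by-cell values with at least 10 reads, 14 (3.89%) differed between the lanes of a cell at an unadjusted p under 0.05 by an exact binomial test, and none after Benjamini-Hochberg adjustment, the lowest adjusted p being 0.544. The kit does not mark the strand, and in the GENCODE vM21 annotation exons of 8 of the 10 genes share bases with a gene on the opposite strand. Ccnd1 shares 1100 exon bases with LTO1, in the table as Oraov1, whose median was 0 CPM in Gata6-low and 0.25 CPM in Gata6-high cells. Ccnd2 shares 368 bases with 9330179D12Rik, which had a median of 0 CPM in both. For Rb1, Lpar6 shares 408 bases and had a median of 0.951 CPM in Gata6-low and 94.4 CPM in Gata6-high cells. For Cdk4, Tspan31 shares 641 bases and had medians of 184 and 491 CPM. Ccne2 shares 609 bases with Ints8, with medians of 48.3 and 35.2 CPM, and Ccnd3 shares 361 bases with Bysl, with medians of 59.8 and 64.2 CPM. Rb1 also shares 488 bases with Rcbtb2, with medians of 7.01 and 7.44 CPM. Ccnd2 also shares 372 bases with Gm43126, and Cdk6 shares 368 with Gm17590, and neither partner had a row. The bases shared by Ccnd1 are 23.4% of its exon bases, the largest such share. How reads in shared bases were assigned is not given in the sources used here, so the values of all 8 genes are uncertain to that extent.

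Spread over all 48 cells was set against the trend for genes of similar mean level, with a one-sided test of scran's modelGeneVar and Benjamini-Hochberg adjustment over all tested genes. None of the 10 genes passed an adjusted p of 0.05, against 2.03% of all tested genes, and 3 had an unadjusted p under 0.05. Ccnd2 came nearest, with a variance of 13.1 against a trend of 6.13 (adjusted p = 0.104). For Ccnd1 the values were 6.74 and 3.78 (adjusted p = 0.626) and for Ccne1 5.60 and 3.32 (adjusted p = 0.900). With the squared coefficient of variation in place of the variance, or with a pseudocount of 10 CPM, Ccnd2 passed. Cdkn1b, at 1.92 against a trend of 6.10, and Cdk2, at 2.56 against 4.18, lay below the trend. Cdk4, at 0.697 against 0.559, lay above it (adjusted p = 0.906). In all, 5 of the 10 genes were above it, against 50.6% of all tested genes.

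Within the 35 Gata6-low cells the G1 genes varied largely apart from one another. Over the 45 pairs, Spearman's rho ran from -0.26 to 0.40 with a median of 0.04, and 2 pairs were over 0.3 in size, Ccnd1 with Cdk4 (0.40) and Ccnd2 with Cdk6 (0.35). Ccnd2 and Cdk6 were near 0 in most of these cells, with medians of 0.346 and 0.125 CPM, so their rho largely ranks few reads. These and the following correlations describe cells that share a library preparation and a scaling, and are given without a test. The cell cycle was read from a G1-S score, the mean log2(CPM + 1) of 33 genes of DNA replication and its licensing. Ccne1 had a rho of 0.63 with that score over 35 cells, and its rho was 0.59 with library size factors, 0.57 with scran factors and 0.64 with DESeq2 poscounts factors. Over 33 cells, without the 2 cells farthest from the median score, rho was 0.64, and with those other factors 0.51, 0.50 and 0.65. Pearson's r was 0.63 over 35 cells and 0.69 over 33, while it went from 0.72 to 0.66 with library size and with scran factors. Ccnd3 followed at 0.31 and Ccne2 at 0.26. With a G2-M score of mitotic genes, Ccnd3 had a rho of -0.34 and Ccne1 one of -0.15. Ccne1 had rho values of -0.04 with read total and 0.11 with the number of genes detected.

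**Figure D3:**
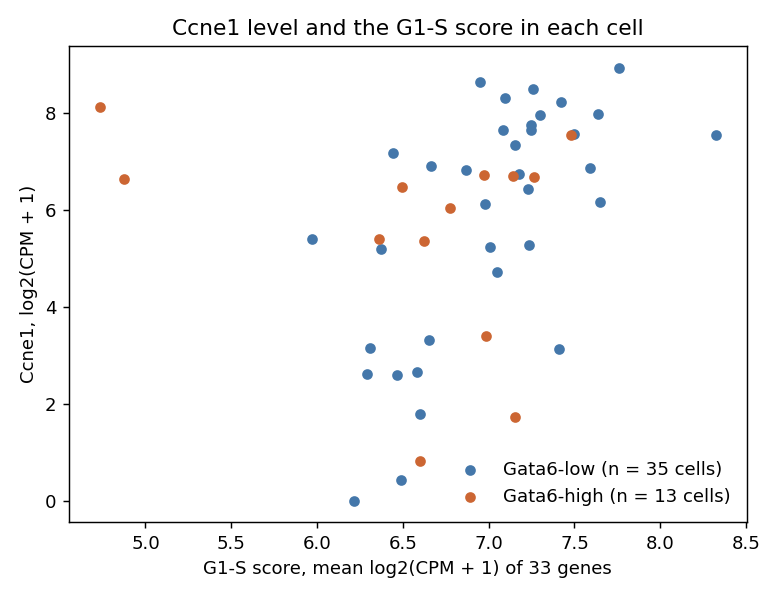
Ccne1 level on the log2(CPM + 1) scale (vertical axis) against the G1-S score, the mean log2(CPM + 1) of 33 genes (horizontal axis), in each of 35 Gata6-low (blue) and 13 Gata6-high (orange) cells. Over the Gata6-low cells Spearman's rho is 0.63, and none was computed over the Gata6-high cells. Of those, 2 stand apart at the left with low scores. The lowest score, 4.73 in cell 32, goes with the highest Ccne1 level of the Gata6-high cells, 8.12.

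The genes whose pattern over the 35 Gata6-low cells was most like that of each G1 gene were taken as the 3 with the highest Spearman's rho. For Ccne1 these were Snrpa1 (0.71), Samhd1 (0.69) and Mcmbp (0.62). For Ccnd3 they were Ergic3 (0.71), Parp4 (0.56) and Chtf18 (0.56). For Cdk4 they were Rbm3 (0.63), Ube2m (0.61) and 2410015M20Rik (0.60). For Ccnd1 they were Tmem126b (0.60), Tgm1 (0.57) and a row with a date-like name in place of a symbol (0.56). Ccnd2 was led by Lias (0.63), Cdk6 by 2010107H07Rik (0.69), Ccne2 by Slc35d2, Cdk2 by Nr6a1 and Cdkn1b by Bbs5 (each 0.60), and Rb1 by Synj2 (0.57). The leading values of the 10 G1 genes lay between 0.57 and 0.71. Each was the highest rho among 8732 compared genes (8733 for Ccnd2) over only 35 cells. How high the top value of such a search runs for unrelated genes was not tested. The genes named are therefore a ranking and not evidence of a link with the G1 gene.

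Beyond these genes, 35 genes of the same pathway were listed: later cyclins and kinases, other inhibitors, pocket proteins, E2F factors and their partners, and regulators of cyclin turnover. Of the 32 that were tested, 1 was at least 1 log2 unit higher in Gata6-high cells, 8 were lower and 23 lay within that range. Across all tested genes, 15.9% were higher and 16.5% lower by that measure. The median of the 32 was -0.45 against -0.15 for all tested genes. The one higher gene was Cdkn1a (p21), an inhibitor of the same family as Cdkn1b. It had 0.144 CPM at the lowest, 18.2 at the median and 203 at the highest in Gata6-low cells, and 22.7, 178 and 302 CPM in Gata6-high cells. Its mean went from 3.96 ± 2.58 to 7.04 ± 1.27 log2 units, a difference of 3.08. The third inhibitor of that family, Cdkn1c (p57), differed by -2.0, so the family did not move as one. Medians of Cdkn1c were 1.92 and 0 CPM.

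The other lower genes were Fzr1, an activator of the anaphase-promoting complex (-1.98), the transcription factor Myc (-1.96), E2f1 (-1.48), the E2F partner Tfdp2 (-1.46), E2f5 (-1.39), the Cdk7 assembly factor Mnat1 (-1.38) and E2f8 (-1.08). E2f1 had medians of 0.317 and 0 CPM and Myc of 6.92 and 0.182 CPM, and at least 5 reads, without thinning, were found for E2f1 in 16 of 35 Gata6-low and 2 of 13 Gata6-high cells and for Myc in 24 and 4. Fzr1 was better counted, with medians of 49.6 and 11.0 CPM. By variance, 2 genes of the list were called: Cdk1, the mitotic kinase (2.25 against a trend of 0.792, adjusted p = 0.000241), and Mycn (3.48 against 1.31, adjusted p = 0.00157). Both were within 1 log2 unit between the states.

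**Figure D4:**
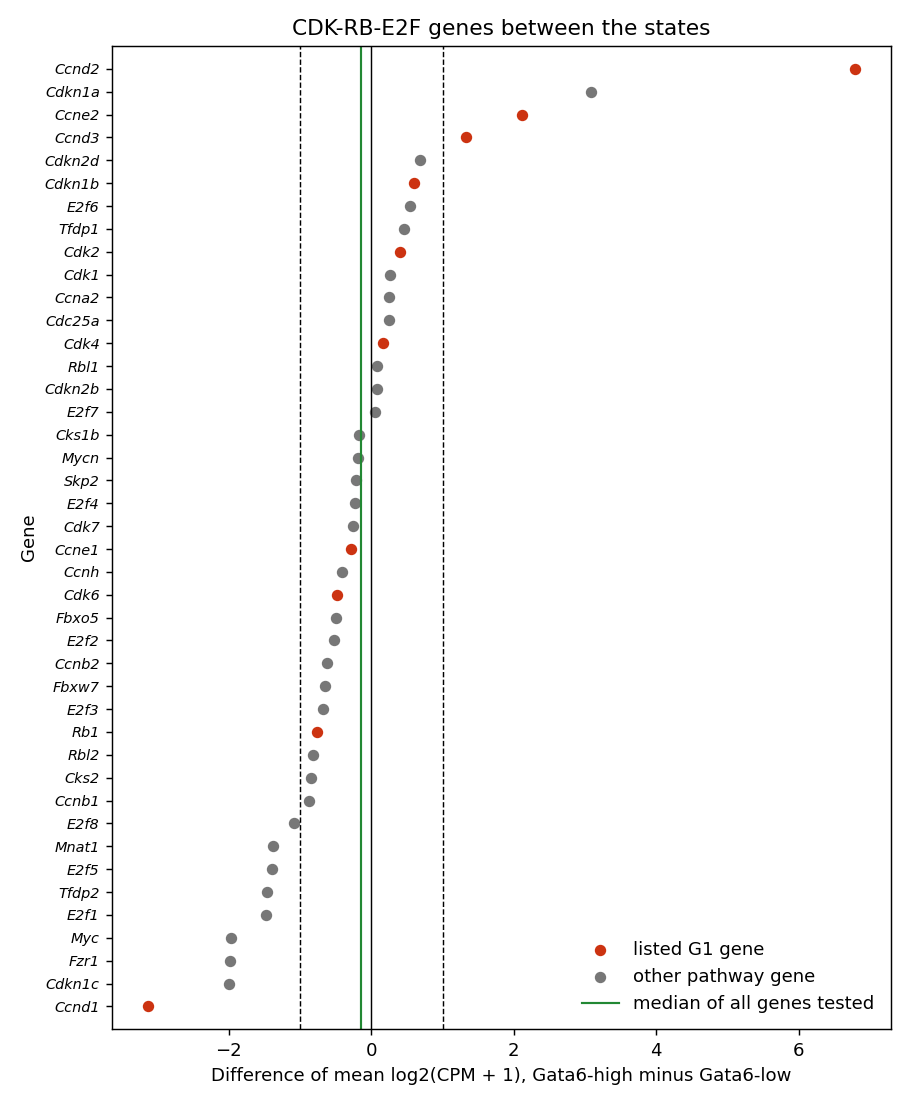
Difference of mean log2(CPM + 1) between 13 Gata6-high and 35 Gata6-low cells (horizontal axis) for the 10 G1 genes (red) and the 32 tested pathway genes (grey), 1 gene per line. Dashed lines mark 1 log2 unit either way and the green line the median of all tested genes; Ccnd2 at 6.79 and Ccnd1 at -3.14 stand at the ends.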

How the data were processed

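Messenger RNA of 48 single cells was sequenced on 2 lanes each, giving 96 samples. The authors deposited raw counts, whole numbers of reads for each gene and lane, in 1 table. Per the submitters' processing notes, which name them without their roles, the build was mm9 and the tools were Subread 1.4.5-p1, featureCounts and STAR 2.3.1z12. Lanes were summed per cell, and no doublet caller was run. Counts were scaled with edgeR 4.0.16 (TMMwsp) to CPM, with a pseudocount of 1 CPM on the log2 scale and a low-count filter (an average of 10 or more reads per cell). Variance was tested in R 4.3.3 by scran 1.30.0 (modelGeneVar), a procedure tested on simulated data. Its p-values set a gene against genes of similar mean and do not extend beyond these cells. Gene lengths are the union of exons in GENCODE vM21 (GRCm38), and no mm9 coordinates were used. The genes named are the 10 G1 genes, pathway genes past 1 log2 unit (at most 12) or called variable, up to 3 genes with the largest differences in each of the G1-S and G2-M lists, and the 3 genes most like each G1 gene among genes averaging 50 or more reads per Gata6-low cell. Cells named by number as exceptions, and the overlapping genes, were chosen after their values were seen. The genes and lists were chosen with earlier results of these data known. Alternatives covered scaling (library size, scran, DESeq2 1.42.0 poscounts), pseudocount, filter, depth, lanes, the measure of spread, the Gata6 threshold and the cells included.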

Additional observations from a re-analysis of the deposited data

How the results depend on the processing

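Over the alternatives, the difference of each G1 gene moved by less than the SD over cells in 139 values. The 1 exception was Ccnd2 at 4.46 with a pseudocount of 10 CPM, and none that was past 1 log2 unit changed sign. The 139 include a Gata6 threshold of 5 CPM, which divides the cells exactly as 20 CPM does. Its values were therefore the same by construction and add no check. The differences ran from 4.46 to 8.35 for Ccnd2, from -4.94 to -1.37 for Ccnd1, from 0.77 to 1.60 for Ccnd3 and from 1.02 to 2.67 for Ccne2. Variance passed for 1 gene, Ccnd2, with a pseudocount of 10 CPM and for 1, again Ccnd2, with the squared coefficient of variation; those settings called 159 and 731 genes in all. Genes lower by 1 log2 unit numbered 2 (Ccnd1 and Rb1) with a difference of medians, 2 with only the Gata6-high cells over 20 CPM of Pou5f1, and 1 to 2 when cells were left out one at a time. Higher genes numbered 5 (Ccnd2, Ccnd3, Ccne2, Cdk2 and Cdkn1b) without the Gata6-high cells over 5 CPM of Pou5f1, 3 whichever single cell was left out, and 2 (Ccnd2 and Ccne2) with a pseudocount of 10 CPM, with a difference of medians and with only the Gata6-high cells over 20 CPM of Pou5f1. The cause of these changes was not tested. The settings with part of the Gata6-high cells and without single cells were chosen after seeing the data. Ccnd2 was detected in 79.2% of cells at 1 read. With cells thinned to a common depth, the same 3 genes were higher and the same 1 lower. All 48 cells count as 1 sample, which limits statements about the states at any depth. No paired analysis was possible because all cells belong to a single group.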

Other observations

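Lists of genes with peaks later in the cycle were described between the same states. Of all tested genes, 15.9% were at least 1 log2 unit higher in Gata6-high cells and 16.5% at least 1 log2 unit lower. Of 33 tested genes of the G1-S transition, 1 was at least 1 log2 unit higher in Gata6-high cells, 5 were lower and 27 lay within that range, with a median of -0.57 against -0.15 for all tested genes. The higher gene was Cdc6, which loads the replicative helicase, at 33.2 CPM in the median Gata6-low and 283.9 CPM in the median Gata6-high cell (a difference of 1.94 log2 units). Mcm2, a subunit of that helicase, differed by -1.63. Of 30 tested genes of G2 and mitosis, 1 was higher, 10 were lower and 19 lay within the range, with a median of -0.82. The largest differences were those of Nusap1 (-3.17), Bub1b (-2.16) and Ckap2 (-2.03), which act at the mitotic spindle. The single higher gene, Cdc25c, an activator of Cdk1, differed by 1.32; it was chosen after its value was seen.

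The scores of these lists overlapped between the states. The G1-S score was 7.01 ± 0.52 (SD, n = 35 cells) in Gata6-low and 6.57 ± 0.85 (SD, n = 13 cells) in Gata6-high cells, and the G2-M score was 7.28 ± 0.51 and 6.46 ± 0.74. Within Gata6-low cells the scores had a rho of -0.11 with each other.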
